A study of Mus musculus with 20 samples.

Results

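The genes described are 5 small leucine-rich proteoglycans, Dcn (decorin), Bgn (biglycan), Lum (lumican), Fmod (fibromodulin) and Ogn (osteoglycin), and the 5 lysyl oxidases, Lox, Loxl1, Loxl2, Loxl3 and Loxl4. They were chosen by gene symbol, as 2 families of matrix genes, and make up 10 of the 43432 genes in the deposited count table. All 10 were among the 15779 genes with enough counts to be tested, although most counts of Lum and Fmod came from the MSC libraries.

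Small leucine-rich proteoglycans are secreted proteins built from leucine-rich repeats. Decorin and biglycan carry chondroitin or dermatan sulfate chains, while lumican, fibromodulin and osteoglycin can carry keratan sulfate. They bind collagen, shape the width and spacing of its fibrils, and hold or present growth factors, and soluble biglycan and decorin can signal through receptors on immune cells. Lysyl oxidases are copper-dependent enzymes that oxidise lysines of collagen and elastin, the step that lets these fibres crosslink. Both families are typical products of fibroblasts and other mesenchymal cells, and are little made by myeloid blood cells.

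RNA was sequenced from 20 libraries of cultured mouse cells in 7 groups, all labelled as nude mouse, an athymic strain. The 5 groups of cells called malignantly transformed, here the lines, have 3 libraries each and are tied to SU3, a human glioma stem cell line. C12 is labelled as macrophages changed in culture with peritoneal washing cells that contained SU3, ih_CTC as macrophages from a peritoneal xenograft, and ih_DCTC as bone marrow dendritic cells cultured with SU3. Oligodendrocytes recultured from a brain graft of SU3 are the label of ih_BCTC, and ih_STC_BM is labelled as mesenchymal stem cells grown out of a tumour, the host's bone marrow having been damaged and later reconstructed. The groups that the study calls precursors are MDSC (3 libraries), myeloid-derived suppressor cells, and MSC (2 libraries), mesenchymal stem cells from normal bone marrow. Medium with 10% fetal bovine serum is given for the cells, and the labels describe growth as clones, so a line may be a single clone. Nothing says that libraries of a group came from separate cultures or animals, so every p-value speaks of library-to-library spread alone.

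Total expected counts ran from 8794777 to 12400640 per library. Levels are TMM-scaled CPM, counts scaled to a common library total, as edgeR gives them, given as mean ± SD over libraries. The share of reads in introns was 1.02% to 8.52% in the lines, 9.64% to 10.4% in MDSC, and 2.07% and 3.09% in MSC. The MDSC libraries lay much closer together than those of any other group, with a chi-square per degree of freedom of 1.69 to 3.15 between pairs, against 23.9 to 261.5 elsewhere. Of the lines, ih_STC_BM had the most scattered libraries, with a correlation of 0.878 between libraries 2 and 3. Markers of the myeloid and glial labels were low in the lines. The 6 leukocyte markers summed to 1.95 to 21.4 CPM in line libraries, against 5142 to 5185 in MDSC and 2186 and 3157 in MSC. In ih_BCTC 7 oligodendrocyte markers summed to 9.16 to 11.1 CPM, with Olig2, Sox10 and Mog at 0, against 140.6 to 160.9 CPM in MDSC and 78.6 to 91.1 CPM in MSC. In ih_DCTC 7 dendritic cell markers summed to 4.44 to 11.7 CPM, with Clec9a at 0, against 946 to 962 CPM in MDSC and 199 to 436 CPM in MSC. The 10 mesenchymal markers summed to 468 to 1819 CPM in line libraries, against 49.1 to 52.9 CPM in MDSC and 989 to 1841 CPM in MSC. The MSC libraries were also high in macrophage markers: the 12 macrophage markers summed to 18831 and 25091 CPM there, against 42.2 to 197 CPM in the lines. In such bulk RNA, fewer cells of a type and less RNA per cell cannot be told apart.

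The 10 genes lie on 9 chromosomes, with coordinates as in the deposited annotation (genome build not given in the sources used here). Dcn (chr10:97479500-97518162) and Lum (chr10:97565501-97572703) are neighbours, 47339 bases apart on the plus strand. Fmod lies at chr1:134037254-134048277, Ogn at chr13:49608071-49624500, Bgn at chrX:73483602-73495933 and Loxl1 at chr9:58287723-58313212. Loxl2 is at chr14:69609068-69695834, Loxl3 at chr6:83034173-83052562 and Loxl4 at chr19:42593982-42612813. Of these, 3 overlap genes on the other strand: Ogn lies inside Cenpp, Loxl2 overlaps Gm27177 and a further transcript, and Loxl3 overlaps Htra2. No label says whether counting used strand, so reads from stretches shared by such a pair may not be told apart. Htra2, a mitochondrial protease gene, was at 66.3 to 133 CPM in every group mean, including 66.3 CPM in MDSC, where Loxl3 was at 2.32 CPM.

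The promoters of Fmod and Loxl4 are shown because these were the members called in all 5 lines against MSC, Fmod lower and Loxl4 higher. Each window runs from 250 bases before the RefSeq start site to 50 bases after it in GRCm38.p6, read along the gene's strand. Capitals mark GGGCGG (GC box) and GTCTG (SMAD box) on either strand. The Fmod window is chr1:134037004-134037303, plus strand, and the Loxl4 window is chr19:42612757-42613056, minus strand.
Fmod: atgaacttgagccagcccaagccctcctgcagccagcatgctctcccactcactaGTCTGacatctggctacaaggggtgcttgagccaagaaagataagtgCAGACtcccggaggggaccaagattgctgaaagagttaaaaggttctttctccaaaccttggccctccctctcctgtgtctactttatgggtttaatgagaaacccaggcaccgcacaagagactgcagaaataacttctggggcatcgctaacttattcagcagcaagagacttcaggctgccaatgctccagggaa
Loxl4: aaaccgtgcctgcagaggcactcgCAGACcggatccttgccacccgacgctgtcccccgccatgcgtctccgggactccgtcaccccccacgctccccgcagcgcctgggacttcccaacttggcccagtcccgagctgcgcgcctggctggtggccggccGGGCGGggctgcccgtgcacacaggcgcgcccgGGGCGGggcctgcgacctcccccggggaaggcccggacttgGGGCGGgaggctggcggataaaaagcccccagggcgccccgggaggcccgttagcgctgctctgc
The Loxl4 window had 3 GC boxes, 1 SMAD box and a GC content of 75%, with 32 CpG dinucleotides, against a median of 7 over 32851 RefSeq promoters of this length. No GC box stood in the Fmod window, which had 3 CpG dinucleotides, a GC content of 51% and 2 SMAD boxes. A GC box occurred in 35.7% of all these promoters and a SMAD box in 49.6%. Of the other members, RefSeq windows were used for Bgn, with 3 GC boxes, 2 of which overlap, and Ogn, with an overlapping pair of TATAAA matches. TATAAA occurred in 13.6% of promoters, while TGANTCA (AP-1, 7.81%) and ACGTG (hypoxia response core, 19.6%) were also searched and stood in none of the 4 windows. A match describes letters only.

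Among the proteoglycans, Bgn was high in all 5 lines and MSC, while Dcn was high in 3 lines and low in C12. Dcn, which binds collagen fibrils and TGF-beta, had 5.39, 2.74 and 33.0 CPM in C12, 693, 673 and 674 CPM in ih_CTC, and 656, 808 and 2210 CPM in ih_DCTC. It had 434, 442 and 886 CPM in ih_BCTC and 182, 81.7 and 21.7 CPM in ih_STC_BM, against 0.331, 1.56 and 0.852 CPM in MDSC and 22.2 and 60.5 CPM in MSC. The order of means was ih_DCTC, ih_CTC, ih_BCTC, ih_STC_BM, MSC, C12 and MDSC, and neighbours overlapped except at 2 steps, ih_BCTC above ih_STC_BM and C12 above MDSC. C12 was thus the only line whose mean was under that of MSC, with overlapping ranges.

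Bgn, a close relative of decorin, had 1429, 1723 and 1601 CPM in C12, 819, 821 and 930 CPM in ih_CTC, and 2313, 557 and 1911 CPM in ih_DCTC. In ih_BCTC it had 406, 989 and 516 CPM and in ih_STC_BM 3112, 2158 and 525 CPM, against 2.10, 2.89 and 1.39 CPM in MDSC and 1147 and 1090 CPM in MSC. Every MDSC library was far below all others. All C12 libraries were above both MSC libraries, all ih_CTC and ih_BCTC libraries were below them, and ih_DCTC and ih_STC_BM had libraries on either side.

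Lum, which spaces collagen fibrils in the cornea and skin, was near its floor in most groups. It had 0 counts in all 3 C12 libraries, where 3 counts over the group would be 0.0969 CPM, and 1 count each over all libraries of ih_CTC, ih_BCTC and MDSC. It had 0.996, 0.151 and 3.81 CPM in ih_DCTC and 1.11, 0.203 and 0 CPM in ih_STC_BM, against 2.29 and 9.57 CPM in MSC. The highest ih_DCTC library therefore lay between the MSC libraries, and the ih_STC_BM libraries lay below both.

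Fmod, which regulates fibril assembly in tendon, was highest in MSC. It had 0.660, 0 and 0.314 CPM in C12, 0, 0.0816 and 0.171 CPM in ih_CTC, 2.49, 0.0752 and 0.454 CPM in ih_DCTC, and 0.150, 0.516 and 0 CPM in ih_BCTC. In ih_STC_BM it had 12.1, 0.608 and 0.293 CPM, against 0 counts in MDSC and 163 and 27.1 CPM in MSC. Every line library was below both MSC libraries, although the MSC libraries themselves differed widely.

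Ogn, first described in bone, varied widely within groups. It had 18.3, 3.29 and 74.2 CPM in C12, 18.9, 17.96 and 60.5 CPM in ih_CTC, and 19.7, 10.2 and 23.0 CPM in ih_DCTC. In ih_BCTC it had 2.78, 92.6 and 6.87 CPM and in ih_STC_BM 43.8, 999.9 and 14.7 CPM, against 0.110, 0.241 and 0.426 CPM in MDSC and 49.8 and 72.6 CPM in MSC. Library 2 of ih_STC_BM was far above all other libraries and sets the mean of that line, 353 ± 561 CPM. Neighbours in the order of means overlapped except ih_DCTC above MDSC.

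**Figure D1:**
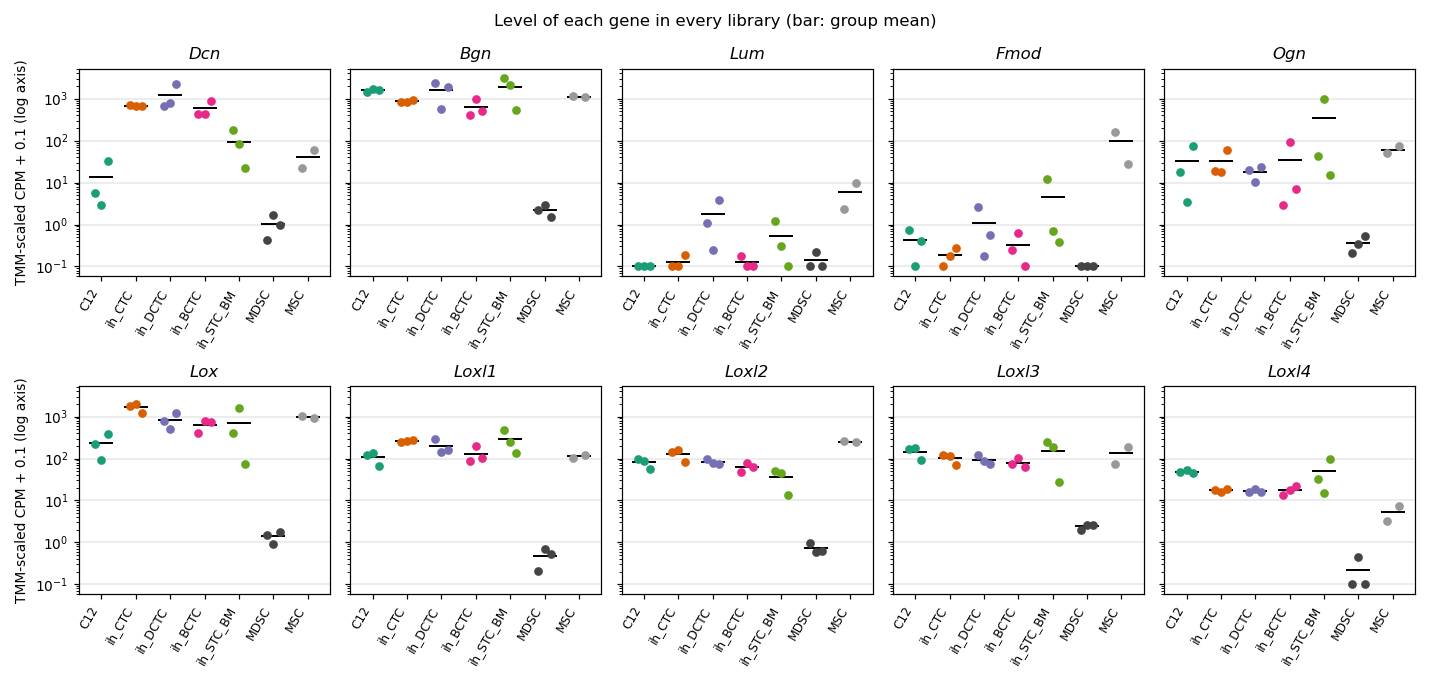
TMM-scaled CPM plus 0.1 of each gene (log axis) in every library (points) of the 7 groups, with a bar at the group mean plus 0.1. The MDSC libraries lie below all others for every gene except Lum and Fmod, Fmod is highest in the MSC libraries, and Dcn is low in C12 beside the other lines.

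Of the lysyl oxidases, Lox, the founding enzyme of the family, had the highest mean share per length in every group except MDSC. In ih_STC_BM libraries 1 and 3, however, Loxl1 was above Lox, at 147 and 41.99 CPM per kilobase of exons, against 85.35 and 15.74. In C12 library 2, Loxl1 and Loxl3 were above Lox, at 41.07 and 38.25 CPM per kilobase against 18.89. The locus of Lox is chr18:52516069-52529867, minus strand. Lox had 217, 90.2 and 388 CPM in C12, 1782, 1971 and 1203 CPM in ih_CTC, 795, 497 and 1206 CPM in ih_DCTC, and 413, 768 and 733 CPM in ih_BCTC. In ih_STC_BM it had 408, 1591 and 75.2 CPM, against 1.44, 0.842 and 1.71 CPM in MDSC and 1036 and 949.8 CPM in MSC. All ih_CTC libraries were above both MSC libraries and all C12 libraries were below them. The ih_STC_BM group held the lowest of all line libraries and also a library above both MSC libraries.

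Loxl1, tied to elastic fibre upkeep, had 118, 135 and 68.0 CPM in C12, 245, 258 and 274 CPM in ih_CTC, and 284, 139.7 and 159 CPM in ih_DCTC. It had 88.1, 197 and 100 CPM in ih_BCTC and 485, 253 and 138 CPM in ih_STC_BM, against 0.110, 0.601 and 0.426 CPM in MDSC and 104 and 125 CPM in MSC. Each library of ih_CTC, ih_DCTC and ih_STC_BM was above both MSC libraries.

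Loxl2, which acts on basement membrane collagen, had 96.9, 89.3 and 55.9 CPM in C12, 141, 158 and 83.2 CPM in ih_CTC, and 97.0, 80.2 and 73.4 CPM in ih_DCTC. It had 48.7, 76.2 and 64.2 CPM in ih_BCTC and 49.9, 43.9 and 13.6 CPM in ih_STC_BM, against 0.883, 0.481 and 0.533 CPM in MDSC and 262 and 245 CPM in MSC. All line libraries were below both MSC libraries.

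Loxl3, needed in mice for palate and cartilage development, had 166, 176 and 92.1 CPM in C12, 122, 112 and 69.0 CPM in ih_CTC, and 119, 87.3 and 75.1 CPM in ih_DCTC. It had 72.6, 101 and 61.7 CPM in ih_BCTC and 242, 190.3 and 27.6 CPM in ih_STC_BM, against 1.88, 2.53 and 2.56 CPM in MDSC and 75.1 and 193 CPM in MSC. The lines and MSC overlapped throughout.

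Loxl4, another enzyme of the family, had 47.9, 53.7 and 44.8 CPM in C12, 17.7, 16.0 and 18.6 CPM in ih_CTC, and 16.2, 19.0 and 16.2 CPM in ih_DCTC. It had 13.7, 17.6 and 22.5 CPM in ih_BCTC and 32.9, 15.2 and 99.6 CPM in ih_STC_BM, against 0, 0.361 and 0 CPM in MDSC and 3.12 and 7.2 CPM in MSC. Every line library was above both MSC libraries, and those in turn were above all MDSC libraries. Library 3 of ih_STC_BM had the highest Loxl4 of all libraries and the lowest Lox, Loxl2 and Loxl3 of all line libraries.

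The make-up of each family was compared on a scale that allows for length, CPM per kilobase of annotated exons, as a share of the family's 5 genes. Bgn made up 94.8% ± 5.74 of the proteoglycan sum in C12, 52.1% ± 0.445 in ih_CTC, 53.2% ± 19.8 in ih_DCTC, 47.2% ± 11.9 in ih_BCTC and 75.8% ± 25.2 in ih_STC_BM, against 74.9% ± 4.24 in MSC (SD, n = 3 each, 2 for MSC). Dcn took most of the rest in ih_CTC, ih_DCTC and ih_BCTC, with 43.3%, 45.2% and 47.8%, against 0.816% in C12, 3.75% in ih_STC_BM and 2.99% in MSC. The proteoglycan sum itself was 275 ± 28.6 CPM per kb in C12 and 269.5 ± 19.1 in ih_CTC, so these lines held close sums in a different make-up. Fmod made up 11.2% ± 10.8 of the sum in MSC and at most 0.256% in the mean of any line.

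In the enzyme family Lox made up 34.2% ± 21.2 in C12, 72.5% ± 3.82 in ih_CTC, 62.4% ± 11.4 in ih_DCTC, 64.8% ± 5.85 in ih_BCTC and 39.3% ± 28.8 in ih_STC_BM, against 65.1% ± 5.66 in MSC. Loxl2 made up 2.54% to 10.8% in the line means, against 14.7% ± 1.07 in MSC. Loxl4 was 8.40% ± 1.40 of the sum in C12 and 9.89% ± 14.2 in ih_STC_BM, against 0.381% ± 0.204 in MSC. The shares are a description with no test.

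**Figure D2:**
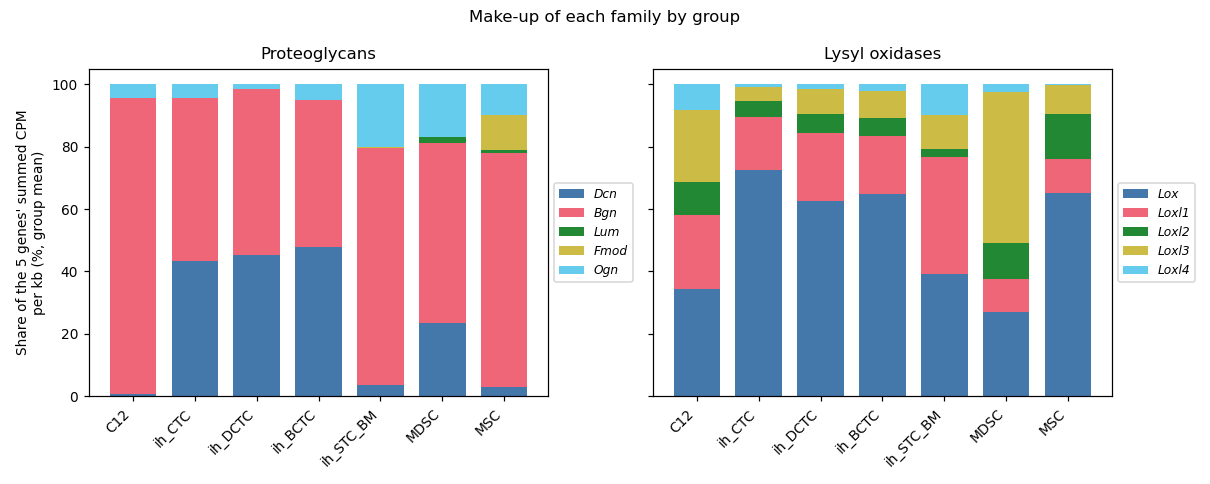
Share (%) of each gene in the summed CPM per kilobase of its family, as the mean over the libraries of each group, for the proteoglycans (left) and the lysyl oxidases (right). Bgn fills 94.8% of the proteoglycan bar in C12 but 52.1% in ih_CTC, where Dcn has 43.3%, and Lox fills 34.2% of the enzyme bar in C12 and 72.5% in ih_CTC.

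Small leucine-rich proteoglycan genes lie in clusters, and several neighbours of the members had other patterns. Kera (keratocan) and Epyc (epiphycan), which follow Dcn and Lum on chromosome 10, had 0 counts in all 20 libraries. Prelp, a proteoglycan of basement membranes 115840 bases from Fmod, averaged 116 ± 23.4 CPM in C12, 35.1 ± 5.58 in ih_CTC, 114 ± 42.9 in ih_DCTC, 28.7 ± 24.1 in ih_BCTC and 39.9 ± 35.5 in ih_STC_BM, against 46.7 ± 26.5 in MSC. The lines thus held Prelp throughout while Fmod was at most 4.33 CPM in any line mean. Beside Ogn, the genes Omd, Aspn and Ecm2 were low in every group. Aspn (asporin) had the highest of these means, 7.55 ± 7.75 CPM in ih_STC_BM, where Ogn was highest too.

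**Figure D3:**
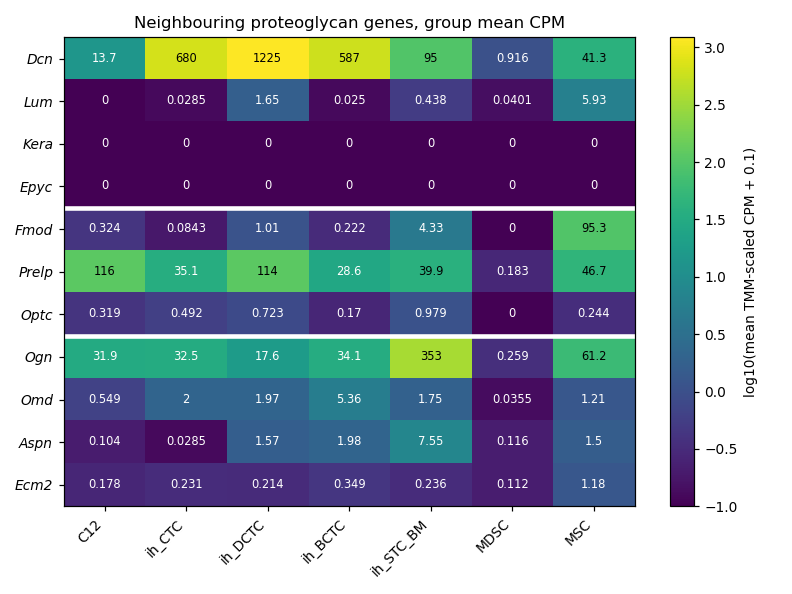
Mean TMM-scaled CPM (number in each cell, colour on a log10 scale) of neighbouring proteoglycan genes, in the clusters of Dcn (top), Fmod (middle) and Ogn (bottom), by group. Dcn is high and Lum at most 1.65 CPM in ih_CTC, ih_DCTC and ih_BCTC, and Prelp is at 28.7 to 116 CPM in the lines where Fmod is at 0.0843 to 4.33 CPM.

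Setting the lines with macrophage or dendritic labels against MDSC asks how far they are from a myeloid population. Nearly all members were higher in the lines. The same 5 lysyl oxidases and Dcn, Bgn and Ogn rose in each of C12, ih_CTC and ih_DCTC, and Lum rose in ih_DCTC. That is 8 of 10 higher in C12, where 31.3% of all tested genes were higher, 8 of 10 in ih_CTC, beside 28.2%, and 9 of 10 in ih_DCTC, beside 31.2%. The median log2 fold change of the 10 members was 6.92 in C12, 7.37 in ih_CTC and 7.06 in ih_DCTC, beside 0.03, 0.08 and 0.09 over all tested genes. With the low-count genes at their counting ratio or bound, these medians were 6.92, 7.45 and 7.14. The 3 comparisons share the MDSC libraries, which are near sampling noise of each other.

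The size of the Dcn difference varied between these comparisons. Its log2 fold change was 3.91 ± 0.98 in C12 (SE, edgeR adjusted p = 0.00224), 9.53 ± 1.17 in ih_CTC (adjusted p = 2.3e-06) and 10.38 ± 1.2 in ih_DCTC (adjusted p = 1.2e-06). In C12 the value rested in part on library 3: without it the log2 fold change was 2.15 (edgeR adjusted p = 0.0365), within 2.15 to 5.58 over 15 alternatives, with adjusted p of up to 0.0499. Bgn had 9.54 ± 0.78, 8.65 ± 0.75 and 9.55 ± 0.78 in that order of lines, with edgeR adjusted p of at most 3.5e-08. For Lox the values were 7.43 ± 0.96, 10.26 ± 1.06 and 9.27 ± 1.03, with adjusted p of at most 4.2e-06 by edgeR. Loxl1 had 8.11 to 9.38, Loxl2 6.96 to 7.62 and Loxl3 5.33 to 5.95 on the log2 scale, each with every line library above every MDSC library.

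Loxl4 had 3 counts over all MDSC libraries, so its fold is a ratio with a 95% counting interval: 431-fold in C12 (147 to 2093), 155-fold in ih_CTC (52.8 to 754) and 155-fold in ih_DCTC (52.7 to 752). Fmod, with 0 counts in MDSC, was at least 2.88-fold higher in C12 and at least 7.17-fold higher in ih_DCTC, against a floor of 3 counts over the group, and did not pass the test in either (edgeR adjusted p = 0.21 and 0.066). Lum in ih_DCTC was 43.0-fold higher than in MDSC (interval 7.39 to 1731, edgeR adjusted p = 0.0101). For Lum in C12 and ih_CTC, and Fmod in ih_CTC, both groups had at most 3 counts and no fold is given. Intervals and floors cover counting error only.

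Ogn was higher by 6.87 ± 1.90, 6.89 ± 1.90 and 6.01 ± 1.88 on the log2 scale (edgeR adjusted p = 0.0046, 0.00505 and 0.0108). With the MDSC libraries summed to 1 library, the Ogn calls were lost in C12, ih_CTC and ih_DCTC (adjusted p = 0.0803, 0.0894 and 0.118 by edgeR) and the Lum call in ih_DCTC was lost too (0.0845), as it was with intron share as a covariate (0.0812) and without ih_DCTC library 3 (0.0785). Over all alternatives the adjusted p of Ogn ran from 6.9e-06 to 0.0803 in C12, 8.0e-06 to 0.0894 in ih_CTC and 1.0e-04 to 0.118 in ih_DCTC.

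MDSC against MSC, the groups called precursors, compares a group labelled as myeloid with a group labelled as mesenchymal. All 10 members were lower in MDSC, beside 25.6% of all tested genes. The median of the members was -8.01 on the log2 scale, against -0.07 over all tested genes. Fmod was at least 798-fold lower in MDSC, Lum was 167-fold lower (95% counting interval 29.5 to 6646) and Loxl4 was 47.6-fold lower (15.9 to 234). Dcn fell by 5.49 ± 1.05 on the log2 scale (edgeR adjusted p = 4.2e-04). Bgn fell by 9.04 ± 0.78, Lox by 9.53 ± 1.05 and Loxl2 by 8.61 ± 0.56 on the log2 scale, with edgeR adjusted p of at most 1.6e-06. The calls of Fmod and Lum were lost with intron share as a covariate (adjusted p = 0.0567 and 0.0611 by edgeR), and that of Ogn with the MDSC libraries summed to 1 (0.0834). These falls stood beside the macrophage markers that both groups carry, at 7544 to 7799 CPM in MDSC and 18831 and 25091 CPM in MSC, and granulocyte markers at 38455 to 41055 CPM in MDSC and 18.1 and 160 CPM in MSC.

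Each line against MSC asks how close it is to the group labelled as normal mesenchymal stem cells. Fmod was lower in all 5 lines and Loxl4 was higher in all 5. Loxl2 and Lum were each lower in 4, Dcn was higher in 3, and Lox was lower in C12. Bgn and Loxl3 passed in no line, and neither did Ogn and Loxl1, although some alternatives called those. These comparisons share the 2 MSC libraries. The macrophage markers given above were lower in all 5 lines than in the MSC libraries, and their part in the results was not tested.

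Counted by line, 1 member was higher and 4 were lower in C12, beside 14.7% and 18.4% of all tested genes. In ih_CTC 2 were higher and 2 lower, beside 14.7% and 19.9%. In ih_DCTC 2 were higher and 2 lower, beside 16% and 18.1%. In ih_BCTC 2 were higher and 3 lower, beside 15.9% and 20.8%. In ih_STC_BM 1 was higher and 3 were lower, beside 14.8% and 17.4%. Among the 10 members, 1 or 2 were thus higher in a line, near the share of all genes. Between 2 and 4 were lower, and the count of 2 in ih_CTC and ih_DCTC is also near that share. Median log2 fold changes of the members were -1.26, -0.40, -0.39, -0.79 and 0.49 in these lines, and 0.00 to 0.05 over all tested genes.

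Fmod had log2 fold changes of -8.15 ± 1.56 in C12, -6.67 ± 1.43 in ih_DCTC, -8.67 ± 1.6 in ih_BCTC and -4.45 ± 1.27 in ih_STC_BM (edgeR adjusted p = 8.5e-04, 0.00194, 5.5e-04 and 0.0141). With 3 counts in ih_CTC, it was 1024-fold lower there than in MSC (95% counting interval 349.8 to 4969). The call in ih_STC_BM was lost without MSC library 1 (adjusted p = 0.252 by edgeR) and in a fit of these groups alone (0.0907), within a range of 0.00112 to 0.252 over the alternatives. Lum was at least 64.4-fold lower in C12, 214-fold lower in ih_CTC (interval 37.8 to 8527) and 225-fold lower in ih_BCTC (39.6 to 8939). In ih_STC_BM it had a log2 fold change of -3.71 ± 1.2 (edgeR adjusted p = 0.0267, 0.00449 to 0.271 over the alternatives), and in ih_DCTC -1.84 ± 1.08 (0.213).

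Dcn had log2 fold changes of 4.04 ± 1.05 in ih_CTC, 4.89 ± 1.10 in ih_DCTC and 3.83 ± 1.04 in ih_BCTC (edgeR adjusted p = 0.00635, 0.00222 and 0.00782). Without MSC library 1, the call was lost in ih_CTC and ih_BCTC (adjusted p = 0.0914 and 0.102 by edgeR) and remained in ih_DCTC. In C12 Dcn had -1.58 ± 0.87 (edgeR adjusted p = 0.179) and in ih_STC_BM 1.2 ± 0.91 (0.344). Leaving out C12 library 3, the highest of its group, gave -3.34 with an adjusted p of 0.00709 by edgeR, within 0.00709 to 0.723 over the alternatives.

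Loxl4 had log2 fold changes of 3.23 ± 0.68 in C12 and 3.24 ± 0.68 in ih_STC_BM (edgeR adjusted p = 0.00137 and 0.00146), the second lost in a fit of its groups alone (0.0617). In ih_CTC, ih_DCTC and ih_BCTC it had 1.75 ± 0.64, 1.72 ± 0.64 and 1.79 ± 0.64 (edgeR adjusted p = 0.0421, 0.0452 and 0.0359). These last calls were close to the threshold: without MSC library 1 the adjusted p was 0.309, 0.312 and 0.279 by edgeR, without MSC library 2 it was 0.053, 0.0568 and 0.047, and they held in 7, 6 and 9 of 13 alternatives, always with the same sign. Loxl2 had -1.65 ± 0.41 in C12, -1.6 ± 0.41 in ih_DCTC, -2.01 ± 0.41 in ih_BCTC and -2.82 ± 0.42 in ih_STC_BM, with edgeR adjusted p of at most 0.00593, and these calls held in all 13 alternatives. In ih_CTC Loxl2 had -0.99 ± 0.41 (edgeR adjusted p = 0.0721).

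Lox had -2.10 ± 0.78 in C12 (edgeR adjusted p = 0.0462), a call that was kept in 7 of 13 alternatives and lost under upper quartile scaling (0.062), with no filter on low counts (0.0866) and without each MSC library, C12 library 1 or C12 library 2 (0.111 to 0.172). In the other lines Lox had -0.64 to 0.73 on the log2 scale and did not pass. It was called lower in ih_STC_BM without library 2 (-2.01, edgeR adjusted p = 0.0321), and with intron share as a covariate in ih_STC_BM (-1.76, 0.0225) and ih_BCTC (-1.89, 0.0218). Loxl1 had 1.35 ± 0.51 in ih_STC_BM (edgeR adjusted p = 0.051) and 1.18 ± 0.51 in ih_CTC (0.0808), and was called in 6 and 3 of 13 alternatives. Bgn had -0.81 to 0.79, Loxl3 -0.78 to 0.19 and Ogn -1.80 to 2.53 on the log2 scale in the 5 lines, with standard errors of up to 0.61, 0.59 and 1.57. Ogn was called in 1 of 13 alternatives each in ih_CTC and ih_DCTC, lower, and in ih_STC_BM, higher, where that setting kept only its library 2.

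**Figure D4:**
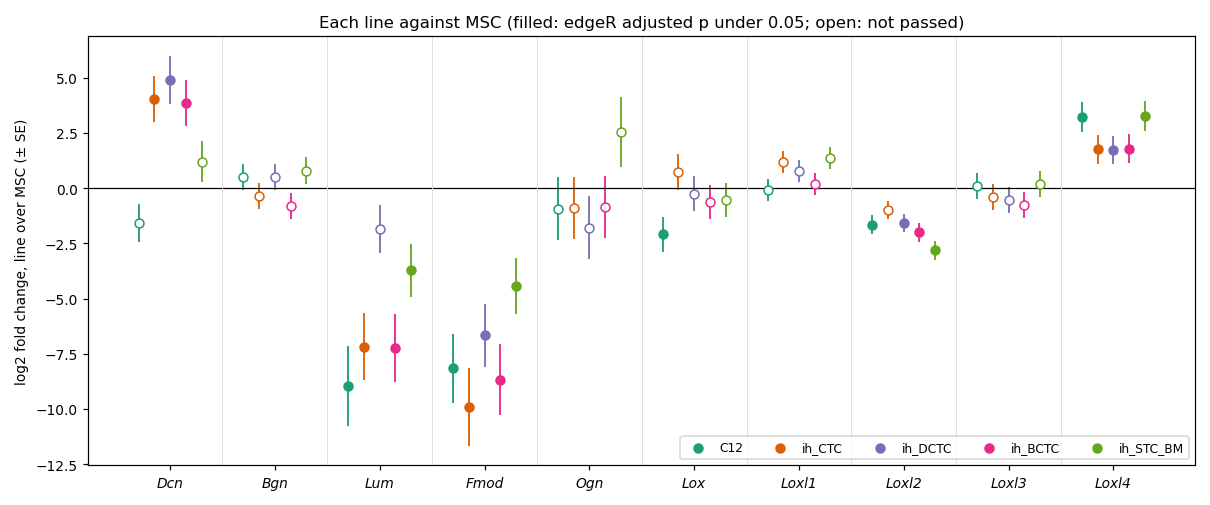
Fitted log2 fold change (± SE) of each gene in each line over MSC. Filled points passed the test (edgeR adjusted p under 0.05) and open points did not: Fmod is below 0 and Loxl4 above 0 in all 5 lines, and Dcn is above 0 with a filled point in ih_CTC, ih_DCTC and ih_BCTC. Points of Lum in C12, ih_CTC and ih_BCTC and of Fmod in ih_CTC rest on 0 to 3 counts and depend on the prior count.

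A joint test asked which members differed anywhere among the 5 lines. Dcn, Lum, Fmod, Ogn, Loxl2 and Loxl4 did, 6 of 10 beside 33.2% of all tested genes. Dcn spanned 6.47 on the log2 scale between its lowest line, C12, and its highest, ih_DCTC (edgeR adjusted p = 5.6e-04), and its call held in all 23 alternatives, with adjusted p of at most 0.00289. Loxl2 spanned 1.83 between ih_STC_BM and ih_CTC (0.016), held in 22 of 23, and was lost without ih_CTC library 2 (0.0564).

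The spans of Ogn and Fmod rested on single libraries of ih_STC_BM. Ogn spanned 4.33 (edgeR adjusted p = 0.0377) and 0.91 without ih_STC_BM library 2 (0.929), and its call held in 11 of 23 alternatives. Fmod spanned 5.45 (edgeR adjusted p = 0.0365) and 3.24 without ih_STC_BM library 1 (0.365), with its call kept in 10 of 22. The span of Fmod is a fitted value whose lowest line, ih_CTC, had 3 counts over the group. Loxl4 spanned 1.52 (edgeR adjusted p = 0.0287) and kept its call in 15 of 23 alternatives, with adjusted p up to 0.152. Lum spanned 7.10, a fitted value that includes the 0 counts of C12 (edgeR adjusted p = 0.0079), and lost its call without ih_DCTC library 3 (0.0546). Lox and Loxl1 just missed the threshold, with spans of 2.83 and 1.45 (edgeR adjusted p = 0.0583 and 0.053). Without ih_STC_BM library 3, which was low in Bgn, Lox, Loxl2 and Loxl3, all 10 members differed among the lines. Without ih_CTC library 1 or 2, 3 and 2 members did. The count of all genes called moved too, from 3996 to 7507 as single libraries were left out, beside 5238 in the main fit.

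C12 against ih_CTC compares the lines that carry macrophage labels. Dcn and Lox were lower in C12, 2 of 10 members, beside 6.9% of all tested genes lower and 9.6% higher. Dcn fell by 5.62 ± 0.96 on the log2 scale (edgeR adjusted p = 8.5e-04) and passed in all 14 alternatives. Lox fell by 2.83 ± 0.75 (edgeR adjusted p = 0.0161), passed in 10 of 14, and was lost without C12 library 1 or 2 or ih_CTC library 2 and with intron share as a covariate (0.0501 to 0.0968). Loxl1 had -1.27 ± 0.44 (edgeR adjusted p = 0.0572) and Loxl4 1.49 ± 0.53 (0.0655), with no overlap between the groups in either gene, and both passed in DESeq2 (0.0383 and 0.0191). Bgn was at 1585 ± 148 CPM in C12 and 856 ± 63.7 CPM in ih_CTC, a log2 fold change of 0.89 ± 0.53 (edgeR adjusted p = 0.256). The intron share differed between these groups, 1.02% to 5.23% in C12 and 6.1% to 7.32% in ih_CTC, and with it as a covariate the log2 fold change of Dcn was -4.90 and that of Lox -1.70 (edgeR adjusted p = 0.00285 and 0.0725).

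ih_DCTC against ih_BCTC sets a dendritic label beside an oligodendrocyte label. No member and no other gene passed in edgeR, 0% of 15779, although 1605 genes and 2 members had an unadjusted p under 0.05, and DESeq2 called 116 genes and no member. Those 2 members were Lum, with 52 counts in ih_DCTC and 1 count in ih_BCTC (57.9-fold higher, interval 9.94 to 2329), and Bgn, with a log2 fold change of 1.32 ± 0.54 (edgeR adjusted p = 0.322 and 0.442). Dcn had 1.06 ± 0.79 and Lox 0.39 ± 0.70. Leaving out ih_DCTC library 2 brought 1 member, Lum, past the threshold (adjusted p = 0.035 by edgeR, 0.035 to 0.979 over the alternatives).

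Other genes that work beside the members were taken from 7 lists with 101 genes. Against MDSC, the lists that build fibres were higher in most of their tested genes: of 10 fibrillar collagens, 7 were higher in C12, 8 in ih_CTC and 8 in ih_DCTC, and of 15 elastic fibre genes, 13, 13 and 14. Of 14 collagen modification and folding genes, 14, 10 and 13 were higher. The 9 tested genes for lysyl oxidase processing and copper had 5, 4 and 5 higher and 2, 2 and 0 lower. The 22 for glycosaminoglycan synthesis had 11, 8 and 7 higher and 7, 8 and 8 lower. Of 9 other small leucine-rich proteoglycans tested, 4, 5 and 6 were higher and 1, 0 and 2 lower. Of 9 receptors that bind decorin or biglycan, 3, 3 and 3 were higher and 4, 2 and 3 lower. Of all tested genes, 28.2% to 31.3% were higher. At most 2 genes of each fibre-building list were lower.

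Against MSC, of 15 elastic fibre genes tested, 5 were higher in C12, 4 in ih_CTC, 8 in ih_DCTC, 5 in ih_BCTC and 5 in ih_STC_BM, and 2, 1, 0, 1 and 3 were lower. Of 9 other small leucine-rich proteoglycans tested, 1 was higher in each line, and 2, 2, 1, 1 and 1 were lower in the same order. Of all tested genes, 14.7% to 16% were higher and 17.4% to 20.8% lower in a line against MSC. Efemp1 (fibulin-3) was at 686 ± 132 CPM in C12, 512 ± 36.8 in ih_CTC, 207 ± 9.41 in ih_DCTC, 239 ± 147 in ih_BCTC and 595 ± 241 in ih_STC_BM, against 8.71 ± 4.81 CPM in MSC. Ltbp4, which helps lay down elastin, had log2 fold changes of 5.62 to 6.07 over the lines (edgeR adjusted p of at most 5.2e-07). Fbln5, which links elastin to cells and binds Loxl1 in mice, was at 3.92 ± 0.893 CPM in C12, against 128 ± 30.9 CPM in ih_CTC and 130.4 ± 42.1 CPM in MSC, and was lower in C12 in both comparisons (edgeR adjusted p = 5.9e-05 and 1.4e-05).

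Of 10 fibrillar collagens tested against MSC, 0 or 1 was higher and 2 to 4 were lower in each line, and a count of 2 is near the share of all genes lower. Col2a1, the cartilage collagen, was lower in every line, with log2 fold changes of -8.93 to -5.35, but the MSC libraries averaged 221 ± 179 CPM. Of 9 tested genes for lysyl oxidase processing and copper, 3 were higher and 4 lower than in MSC in both C12 and ih_CTC. The counts were 2 and 3 in ih_DCTC, 2 and 4 in ih_BCTC and 2 and 2 in ih_STC_BM. Among those lower, Bmp1, the protease that releases active Lox, averaged 160 ± 5.65 CPM in MSC. In the lines it was at 32.2 ± 2.49 CPM in C12, 46.1 ± 2.60 in ih_CTC, 39.4 ± 8.54 in ih_DCTC, 32.5 ± 5.67 in ih_BCTC and 70.6 ± 26.8 in ih_STC_BM. It was lower in all 5 (edgeR adjusted p = 4.7e-05 to 0.0124). Postn (periostin), a matrix protein that promotes the action of Bmp1 on Lox, was lower in C12, ih_CTC, ih_DCTC and ih_BCTC, at 0.0856 to 0.697 CPM, against 47.6 ± 0.470 CPM in MSC. Genes of this list named as higher were Atp7a in C12 and ih_CTC (log2 fold changes of 1.63 and 1.77) and Fn1 in C12, ih_CTC and ih_STC_BM (1.57 to 1.76). Pcolce was higher in ih_DCTC, ih_BCTC and ih_STC_BM (1.11 to 1.63).

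Of 22 glycosaminoglycan synthesis genes tested against MSC, 2 were higher and 5 lower in C12, 1 and 11 in ih_CTC, 2 and 8 in ih_DCTC, 2 and 9 in ih_BCTC and 1 and 6 in ih_STC_BM. The lower counts in C12 and ih_STC_BM are near the shares of all genes lower, which also outnumbered those higher. Xylt2, which adds the first sugar of a chain, was at 32.2 ± 2.87 CPM in ih_CTC, 44.5 ± 13.2 in ih_DCTC and 38.6 ± 2.64 in ih_BCTC, against 173 ± 2.64 CPM in MSC (edgeR adjusted p of at most 4.4e-05). Csgalnact1, which starts chondroitin chains, was higher in all 5 lines, with log2 fold changes of 1.68 to 2.74 (edgeR adjusted p = 0.00294 to 0.0456). Crtap, part of the complex that hydroxylates collagen prolines, was lower in C12, ih_CTC, ih_DCTC and ih_STC_BM (-2.87 to -1.95 on the log2 scale). Its list, collagen modification and folding with 14 genes tested, had 1 to 3 higher and 2 to 4 lower per line. Counts of 2 or 3 are near the shares of all genes in either direction. Serpinh1 was higher in ih_STC_BM (1.49) and C12 (1.14), and Plod2 in ih_CTC (1.98) and ih_BCTC (1.34). Also higher were P3h2 in ih_BCTC (2.11) and ih_DCTC (2.23), and P4ha2 in ih_DCTC (1.55). At most 2 genes per list and direction were named in a line, so Xylt2 and Crtap may also be lower in lines not given. Of the receptors that bind decorin or biglycan, Met was higher in all 5 lines (2.0 to 2.90). Cd14, also a macrophage marker, was lower in C12, ih_DCTC, ih_BCTC and ih_STC_BM (-4.06 to -1.61). In ih_CTC Cd14 was not among the 2 receptors named as lower, but its mean was 95.5 ± 4.56 CPM, against 297 ± 112 CPM in MSC.

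**Figure D5:**
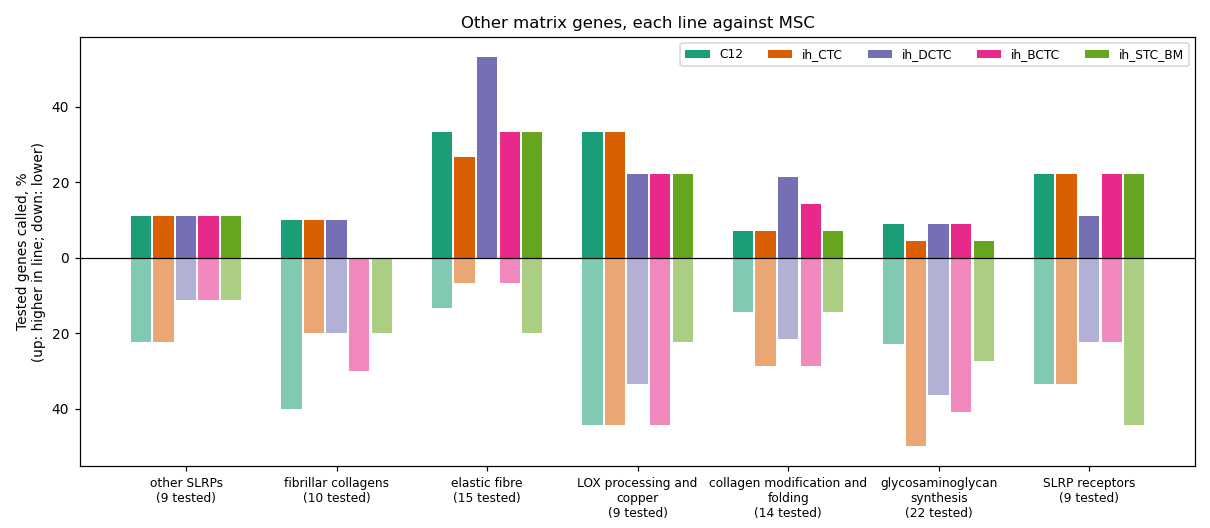
Percent of the tested genes of each list called higher (solid bars, upward) or lower (pale bars, downward) in each line against MSC, by edgeR adjusted p under 0.05. The elastic fibre bar of ih_DCTC stands for 8 of 15 genes higher, and the glycosaminoglycan synthesis bar of ih_CTC for 11 of 22 genes lower.

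For each member, the genes with the most similar log2 CPM over the 20 libraries were found by Pearson correlation. The search covered tested genes other than the members, with a mean of at least 5 CPM in their highest group. Between members, r ran from -0.02 for Lum with Loxl4 to 0.97 for Bgn with Loxl1 and with Loxl3. Bgn was closest to Rcn3 (r = 0.991) and Col1a2 (0.989), and Loxl3 to Col1a1 (0.972) and Col5a1 (0.968). Loxl1 was closest to Fkbp9 (0.987) and Mmp2 (0.983), Lox to Arhgap28 (0.978) and Col8a1 (0.977), and Loxl2 to Palld (0.977) and Antxr1 (0.971). Loxl4 was closest to Hspb8 (0.981), a small heat shock protein gene at 172 CPM in C12 and 154 CPM in ih_STC_BM, against 7.2 CPM in MSC. Dcn was closest to Ptprk (0.963) and Murc (0.952). The lower likeness values were those of Ogn with Zc2hc1a (0.904), Fmod with Pappa (0.920) and Lum with Mmp23 (0.868). Libraries of a group share their source, and the MDSC libraries lie far below the rest for most of these genes, so the values describe these libraries only.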

How the data were processed

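RNA was sequenced from 20 libraries of cultured mouse cells in 7 groups, and the authors deposited a table of expected counts per gene. The names STAR, RSEM 1.2.26 and DESeq2 stand in the submitters' processing notes with no roles, and the build was not given in the sources used here. Mapped and intronic shares of reads, in percent, are the authors' deposited values. Expected counts were rounded, and 8.22% were not whole. Genes were filtered with filterByExpr (at least 10 counts, 15 in total) and scaled by TMM. All libraries entered a single edgeR 4.0.16 quasi-likelihood fit (R 4.3.3), with Benjamini-Hochberg adjustment over 15779 genes in each of 12 comparisons and a threshold of 0.05. The fit was also run on counts simulated from a common mean per gene over all groups, with changes added to a single group. Real groups differ from each other more widely, so that run does not measure error in the fits reported here. Standard errors (SE) of log2 fold changes were derived as the absolute value divided by the square root of the edgeR F statistic. Counting intervals are exact, at 95%, and floors are 3 counts over a group. limma 3.58.1 (voom) and DESeq2 1.42.0 served as alternatives, and summing the MDSC libraries was added after seeing the data. Besides the members, each list named up to 2 called genes per direction, by largest log2 fold change and with a higher group of at least 5 CPM, and likeness named 2 genes per member. The members, lists and tests were chosen with earlier results of these data known. Promoters came from RefSeq GRCm38.p6, with windows of 4 of 10 members used. Windows on chromosome 18, where Lox lies, were left out.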

Additional observations from a re-analysis of the deposited data

Results flagged for a closer look

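Among the 5 lines, 6 members differed between groups by the joint edgeR test. Dcn (adjusted p = 5.6e-04 by edgeR) was lowest in C12 and highest in ih_DCTC. Lum (0.0079) had 0 counts in C12 and its highest line mean in ih_DCTC. Fmod (0.0365) and Ogn (0.0377) had their highest line means in ih_STC_BM, set in each by a single library. Loxl2 (0.016) was lowest in ih_STC_BM and highest in ih_CTC. Loxl4 (0.0287) was high in C12 beside ih_CTC, ih_DCTC and ih_BCTC and uneven in ih_STC_BM, where library 2 lay within the range of those 3 lines and library 3 was the highest. Between lines with macrophage labels, Dcn and Lox were lower in C12 than in ih_CTC (edgeR adjusted p = 8.5e-04 and 0.0161).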

How the results depend on the processing

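No paired analysis was possible because the labels carry no replicate numbers. Members called in ih_STC_BM against MSC numbered 1 in a fit of only the groups compared. In C12 against ih_CTC they numbered 4 by DESeq2, 4 by limma-voom, 5 with only the groups compared and 4 without the 5 line libraries of low intron share. That setting leaves C12 and ih_STC_BM with 1 library each, assumed to vary like the other groups. Leaving out each library gave 2 to 3 members in ih_CTC and 3 to 5 in ih_BCTC against MSC. It gave 1 to 2 in C12 against ih_CTC and 0 to 1 in ih_DCTC against ih_BCTC. Among the lines it gave 2 to 10 members, beside 3996 to 7507 of all tested genes. RLE scaling put Dcn in ih_CTC at 660.2 CPM.

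With only the groups compared, all genes called numbered 8432 in ih_CTC, 1802 in ih_STC_BM and 11435 in MDSC, each against MSC. Without the low intron libraries they numbered 8856 in ih_CTC, 8269 in ih_DCTC and 9093 in ih_BCTC against MSC, with intron share as a covariate 7971 in ih_STC_BM against MSC, and with the MDSC libraries summed 4149 in MDSC against MSC. DESeq2 called 116 genes in ih_DCTC against ih_BCTC. Leaving out each library gave 3302 to 5768 genes in C12, 3266 to 4624 in ih_CTC, 3439 to 5162 in ih_DCTC, 3604 to 5014 in ih_BCTC and 3118 to 6150 in ih_STC_BM against MSC, the lowest of each without MSC library 1, 1308 to 4613 in C12 against ih_CTC and 0 to 490 in ih_DCTC against ih_BCTC.

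Log2 fold changes that changed sign, none of them called, were as follows. Against MSC, C12 gave Loxl1 0.04 (upper quartile) and, without the low intron libraries, Ogn 0.25 and Loxl3 -0.57, and ih_CTC gave Lox -0.75 (intron covariate). In ih_STC_BM against MSC, Loxl3 was -0.15 (limma-voom), Ogn -0.42 (intron covariate) and Lox 0.65 (without the low intron libraries). In C12 against ih_CTC, Ogn was 0.02 (RLE, DESeq2), 0.07 (upper quartile), 0.04 (no filter), 0.00 (only the groups compared), 1.84 (intron covariate) and 1.21 (without the low intron libraries), Fmod -0.37 (intron covariate) and Loxl3 -0.11 (without the low intron libraries). In ih_DCTC against ih_BCTC, Ogn was 0.46 (limma-voom) and 0.35 (intron covariate). Leaving out each library, Loxl3 against MSC ran from -0.42 to 0.95 in C12, -0.94 to 0.43 in ih_CTC, -1.04 to 0.32 in ih_DCTC, -1.30 to 0.06 in ih_BCTC and -0.33 to 1.03 in ih_STC_BM. Loxl1 ran from -0.22 to 0.15 in C12 and -0.28 to 0.38 in ih_BCTC, Lox from -0.62 to 0.01 in ih_DCTC, and Ogn from -1.05 to 3.06 in ih_STC_BM. Ogn ran from -1.59 to 0.79 in C12 against ih_CTC and -1.50 to 1.87 in ih_DCTC against ih_BCTC, where Loxl4 ran from -0.23 to 0.13. The cause was not tested. Upper quartile scaling moved the median of all genes by 0.27, 0.17 and 0.22 in C12, ih_CTC and ih_DCTC against MDSC and by -0.13 in MDSC against MSC, and RLE by -0.14 and -0.13 in ih_CTC and ih_DCTC against MDSC. Depth limits Lum and Fmod, whose folds rest on 0 to 3 counts in several groups.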
